A study of Mus musculus with 6 samples.

Results

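The tumour suppressor p53, encoded by Trp53 in the mouse, and 9 of its best known target genes were followed in stromal cells of the bone marrow. The 10 members were taken by gene symbol (Trp53, Mdm2, Cdkn1a, Ccng1, Gadd45a, Bax, Bbc3, Phlda3, Sesn2 and Zmat3) from a table of 25491 genes, and each symbol matched 1 row. Bulk RNA was sequenced from mesenchymal progenitor cells, the stroma that supports blood formation and gives rise to bone, cartilage and fat. 3 libraries were from Lama4-/- mice, knocked out for the laminin α4 chain of basement membranes, and 3 were from wild type mice. All mice were C57BL/6J, 14 weeks old, and had received a sublethal dose of 7 Gy 6 weeks before the cells were sorted. No group without irradiation was analysed here, so the values compare 2 genotypes at 1 time after irradiation and do not show how far any gene had moved since the dose. Whether a library holds 1 mouse or a pool is not given in the sources used here, so p-values reflect the variation among these 6 samples, part of which may be technical. How the Lama4 allele was made is not given in the sources used here.

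Ionising radiation breaks DNA, and the kinases that sense the breaks stabilise the p53 protein, which then binds DNA as a tetramer and switches on genes for cell cycle arrest, repair and cell death. Mdm2 closes a feedback loop, since p53 induces it and the MDM2 protein marks p53 for destruction. Much of the control of p53 acts on the protein rather than on its mRNA, and mRNA alone was measured here.

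p53 recognises a pair of 10-base half-sites. The half-site consensus, which reads alike on both strands, was searched in promoter windows of RefSeq (build GRCm38.p6) that run from 250 bases before to 50 bases after each gene's start. 9 of the 10 members had a window, 12 windows in all; Zmat3 had none in this table. A half-site lay in the windows of 6 of these 9 genes, against 9.55% of the 27025 genes in the table. Over windows it was 6 of 12 for the members and 8.36% of all 32851. The half-sites are printed here because they match the letters that p53 recognises, and a match is a description of the sequence, not evidence of binding. Half-sites are in capitals, with flanking bases in lower case, 5′ to 3′ on the strand of the gene.
Trp53, chr11:69580264-69580313, plus strand: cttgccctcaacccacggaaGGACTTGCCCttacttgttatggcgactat
Mdm2, chr10:117710915-117710964, minus strand: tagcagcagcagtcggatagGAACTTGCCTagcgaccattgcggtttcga
Cdkn1a, chr17:29090886-29090957, plus strand: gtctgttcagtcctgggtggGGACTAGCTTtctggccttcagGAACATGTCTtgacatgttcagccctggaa
Ccng1, chr11:40755442-40755491, minus strand: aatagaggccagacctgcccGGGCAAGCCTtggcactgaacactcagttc
Gadd45a, chr6:67037418-67037467, minus strand: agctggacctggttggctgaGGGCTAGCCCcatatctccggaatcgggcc
Bax, chr7:45467070-45467119, minus strand: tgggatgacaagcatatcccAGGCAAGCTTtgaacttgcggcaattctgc
The half-sites began between 40 bases (Gadd45a) and 201 bases (Bax) before the start. Cdkn1a alone among the members held 2 of them in 1 window. They were 12 bases apart, within the 13 that a full p53 site allows, and 0.0731% of all windows held such a pair. The search took exact matches only. The 10 bases right after the second half-site depart from the consensus at their first base, so they stayed in lower case. They may pair with that half-site without a gap, and which pair p53 binds was not tested. That window belongs to the upstream of the 2 starts that RefSeq gives for Cdkn1a. The windows of Bbc3, Phlda3 and Sesn2 held no match to these letters, which says nothing of sites outside the 300 bases.

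The libraries held between 12979711 and 15663957 counts in Lama4-/- and between 6263830 and 13409177 in wild type, where replicate 2 was the shallowest. Lama4 itself had 0 counts in every Lama4-/- library and 236 to 607 counts in wild type libraries, so the targeted gene matched the labels. Stromal and cartilage transcripts were abundant: 10 marrow stroma markers summed to between 58721 and 148301 CPM (counts relative to library size after TMM scaling) in Lama4-/- and between 98697 and 121066 CPM in wild type. Most of the stroma sum came from the collagen genes Col1a1 and Col1a2. The 6 chondrocyte markers summed to between 59758 and 114847 CPM in Lama4-/- and between 86569 and 132296 CPM in wild type. For 7 osteoblast markers the sums were between 12697 and 26606 CPM in Lama4-/- and between 12728 and 14432 CPM in wild type. At an unadjusted p under 0.05 in edgeR, 5 of the 10 stroma markers were lower in Lama4-/- (Lepr, Pdgfra, Pdgfrb, Prrx1 and Kitl). So were 3 of 6 chondrocyte markers (Acan, Sox9 and Col11a1), beside 8.34% of all genes tested, and none passed the adjusted threshold. Lepr averaged 128 CPM in Lama4-/- and 361 CPM in wild type, a log2 fold change of -1.50 that was -0.95 with a trend on transcript length removed. With that trend removed, Lepr, Pdgfrb, Acan and Sox9 kept an unadjusted p under 0.05 in edgeR, while Pdgfra, Prrx1, Kitl and Col11a1 did not. In that fit 8.12% of all genes tested had one in either direction. The stroma marker Foxc1 was then higher in Lama4-/- (log2 fold change 0.79, unadjusted p = 0.0395 in edgeR). Of the sort gate, Ptprc (CD45) was at 0 in 3 libraries, while Cd44, whose protein the gate excludes, was at 53.2 to 82.0 CPM in Lama4-/- and 70.6 to 152 CPM in wild type. Transcripts of several other marrow cells were uneven between genotypes. 10 neutrophil and monocyte markers summed to 806, 743 and 117 CPM in Lama4-/- libraries and to 118, 38.9 and 128 CPM in wild type. 8 erythroid markers summed to between 1428 and 3956 CPM in Lama4-/- and between 284 and 1770 CPM in wild type. 6 endothelial markers summed to between 0.120 and 1.74 CPM in Lama4-/- and between 6.16 and 9.20 CPM in wild type. Of these, Cdh5, Tek and Tie1 were at 0 in every Lama4-/- library. Macrophage markers summed to between 18.4 and 36.6 CPM in Lama4-/- and between 11.6 and 27.8 CPM in wild type. Sums of megakaryocyte and platelet markers (4.74 to 16.4 CPM in Lama4-/-, 9.42 to 21.3 CPM in wild type) overlapped as well. So did those of B lymphocyte markers (0.944 to 13.5 CPM in Lama4-/-, 3.77 to 9.87 CPM in wild type). The part of these other cells in the values below was not tested, and in bulk RNA fewer cells of a type and less RNA per cell cannot be told apart.

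None of the 10 members differed between genotypes past the threshold. All 10 passed the filter on low counts, and 0 had an adjusted p under 0.05 in the quasi-likelihood test of edgeR, where 0.00691% of the 14465 genes tested passed. That was 1 gene, the knocked-out Lama4, at an edgeR adjusted p of 0.0497. Lama4 missed the threshold with the length trend removed (edgeR adjusted p = 0.0752) and in limma voom (adjusted p = 0.160). A member that did not pass is therefore weak evidence of no difference. The edgeR adjusted p of the members ran from 0.438 for Bax to 0.955 for Trp53. At an unadjusted p under 0.05 there were again 0 members, beside 12.8% of all genes tested (4.45% with Lama4-/- higher and 8.34% with it lower). The members split evenly, 5 with a positive and 5 with a negative log2 fold change of Lama4-/- over wild type, and their median was 0.053 against -0.040 over all genes tested. DESeq2 called 0 of the 10, beside 4.64% of the genes to which it gave an adjusted p. None of the 10 had an adjusted p under 0.05 in the authors' deposited table, beside 6.63% of its genes with one; the lowest of the 10 in the authors' deposited table was 0.260, for Bax. A p above the threshold does not show that the genotypes were equal, so the 95% interval of each difference is given. For 8 of the 10 members that interval lay inside a 2-fold change in either direction, and the exceptions were Bax and Zmat3.

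**Figure D1:**
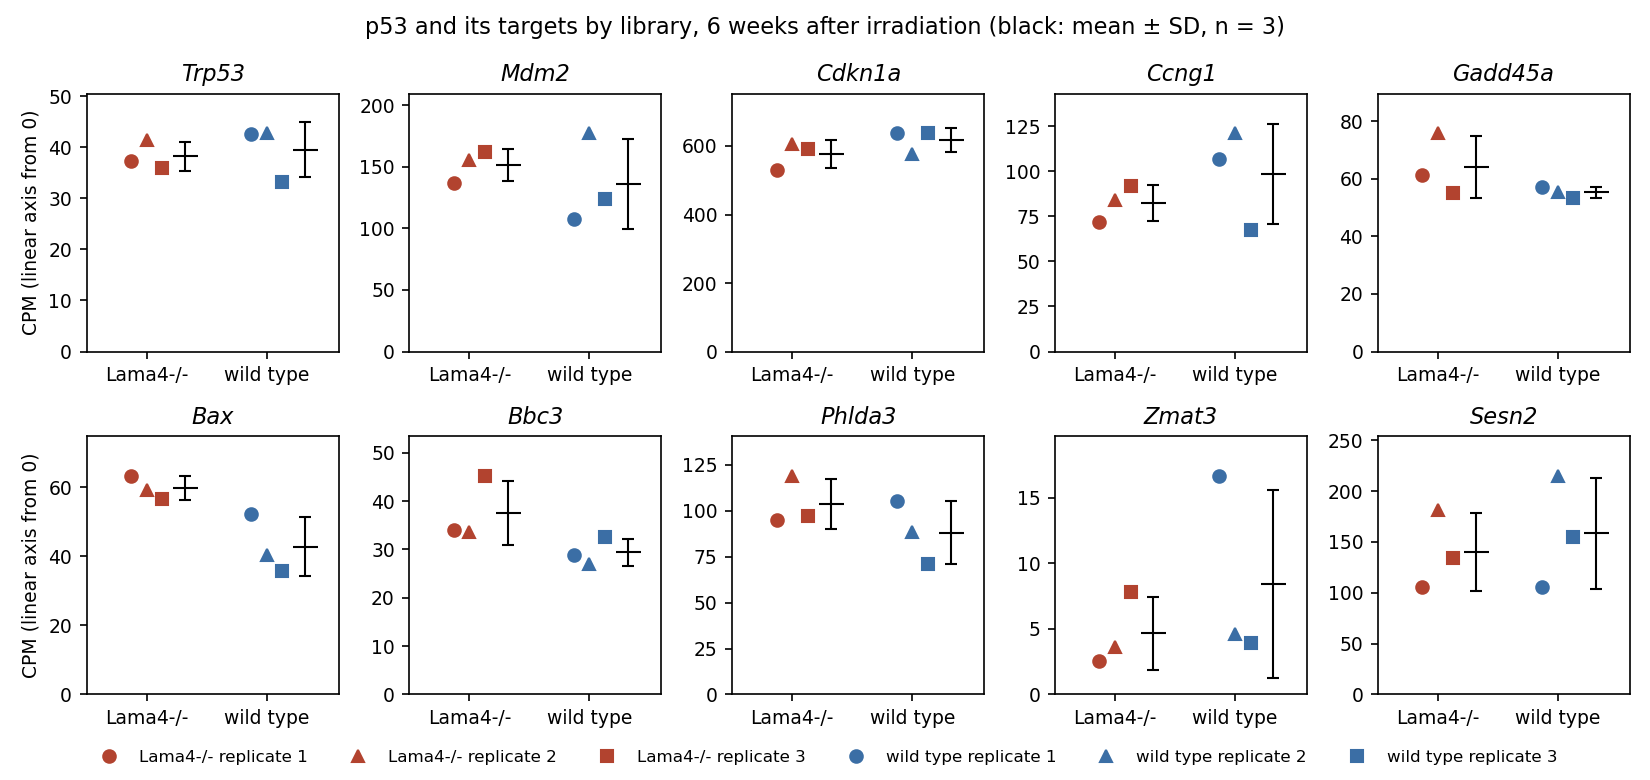
CPM of each of the 10 members in every library, Lama4-/- on the left and wild type on the right of each panel, with the mean ± SD (n = 3) in black on a linear axis from 0. The groups overlap in 8 panels; in those of Bax and Bbc3 every Lama4-/- point lies above every wild type point.

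Neither the factor nor its main inhibitor passed the test. Trp53 was at 37.4, 41.4 and 35.9 CPM in the Lama4-/- libraries, against 42.6, 42.8 and 33.3 CPM in the wild type libraries. The groups overlapped, with the highest and the lowest library both wild type. Its log2 fold change was -0.048 (SE 0.24, 95% interval -0.60 to 0.50), a fold of 0.967 that could lie between 0.661 and 1.42. Its sign was not fixed, at 0.025 without wild type replicate 1 and 0.013 without wild type replicate 2. Mdm2, the ubiquitin ligase, was at 137, 156 and 162 CPM in Lama4-/-, against 107, 178 and 124 CPM in wild type. The Lama4-/- libraries lay close together inside the wider wild type range. The log2 fold change of Mdm2 was 0.15 (SE 0.23), with an interval on the fold of 0.766 to 1.61. A processed pseudogene of Trp53 is annotated on chromosome 17, and how reads that fit both were counted is not given in the sources used here.

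Of the genes of cell cycle arrest, Cdkn1a was the most abundant and the most even member. It encodes p21, the inhibitor of cyclin-dependent kinases through which p53 holds cells in G1. It was at 531, 606 and 591 CPM in Lama4-/-, against 638, 577 and 638 CPM in wild type, which placed its mean above 98.9% of the genes tested. The highest of the 6 libraries was 1.20 times the lowest, and the groups overlapped. Lama4-/- over wild type gave a log2 fold change of -0.10 (SE 0.16, interval -0.48 to 0.28), so the fold lay between 0.718 and 1.21. This was the narrowest interval of the 10.

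Ccng1 encodes cyclin G1, a p53 target that recruits a phosphatase to MDM2. It was at 71.6, 83.9 and 91.6 CPM in Lama4-/-, against 107, 121 and 67.5 CPM in wild type. The wild type libraries enclosed the others on both sides, and the log2 fold change was -0.26 (SE 0.26, interval -0.86 to 0.35). Gadd45a encodes a small stress sensor that acts in growth arrest, repair and kinase signalling. It was at 61.3, 75.9 and 54.9 CPM in Lama4-/-, against 57.2, 55.3 and 53.4 CPM in wild type. The wild type values were within 4 CPM of each other, and Lama4-/- replicate 2 stood above the rest. The log2 fold change of Gadd45a was 0.21 (SE 0.21, interval -0.29 to 0.71).

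The 3 genes that favour cell death had positive log2 fold changes, none of which passed the test, and that of Phlda3 was negative with the trend on transcript length removed. Bax, whose protein opens the outer mitochondrial membrane, was at 63.3, 59.3 and 56.6 CPM in Lama4-/-, against 52.1, 40.4 and 35.8 CPM in wild type. Every Lama4-/- library was above every wild type library. Its log2 fold change was 0.48 (SE 0.23, interval -0.06 to 1.02), the largest positive value of the 10, with an unadjusted p of 0.0734 in the edgeR test and an adjusted p of 0.438. Bbc3 encodes PUMA, a BH3-only protein that frees BAX from its inhibitors. It was at 34.0, 33.5 and 45.2 CPM in Lama4-/-, against 28.8, 27.1 and 32.5 CPM in wild type, again without overlap. The log2 fold change of Bbc3 was 0.35 (SE 0.26, interval -0.24 to 0.95; edgeR adjusted p = 0.632). Groups that do not overlap were found in 2 of the 10 members, or 20%, and in 22.3% of all genes tested (10.3% with Lama4-/- higher and 12% with it lower). Phlda3 encodes a pleckstrin-homology protein that competes with AKT for the membrane and so favours cell death. It was at 94.7, 119 and 97.3 CPM in Lama4-/-, against 105, 88.2 and 70.8 CPM in wild type. Wild type replicate 1 lay among the Lama4-/- values, and the log2 fold change was 0.23 (SE 0.22, interval -0.27 to 0.74).

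Sesn2 and Zmat3 spread most among the libraries. Sesn2 encodes sestrin 2, a leucine sensor that restrains mTORC1 and is induced by p53 and by other stress factors. It was at 105, 181 and 134 CPM in Lama4-/-, against 106, 215 and 154 CPM in wild type. Replicate 1 was the lowest and replicate 2 the highest of both groups. Its log2 fold change was -0.18 (SE 0.31, interval -0.91 to 0.56), and was 0.0074 without Lama4-/- replicate 1 and 0.11 without wild type replicate 2. Zmat3 encodes a zinc finger protein that binds RNA and controls splicing and mRNA stability. It was at 2.58, 3.61 and 7.84 CPM in Lama4-/-, against 16.7, 4.62 and 3.93 CPM in wild type. These values rest on 43, 48 and 108 counts in Lama4-/- and 223, 27 and 51 counts in wild type, the fewest of any member. Wild type replicate 1 stood far above the other two wild type libraries. The log2 fold change of Zmat3 was -0.85 (SE 0.79, interval -2.70 to 0.995), and without wild type replicate 1 it was 0.15. At this spread a difference of the size of the estimate was not detectable.

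**Figure D2:**
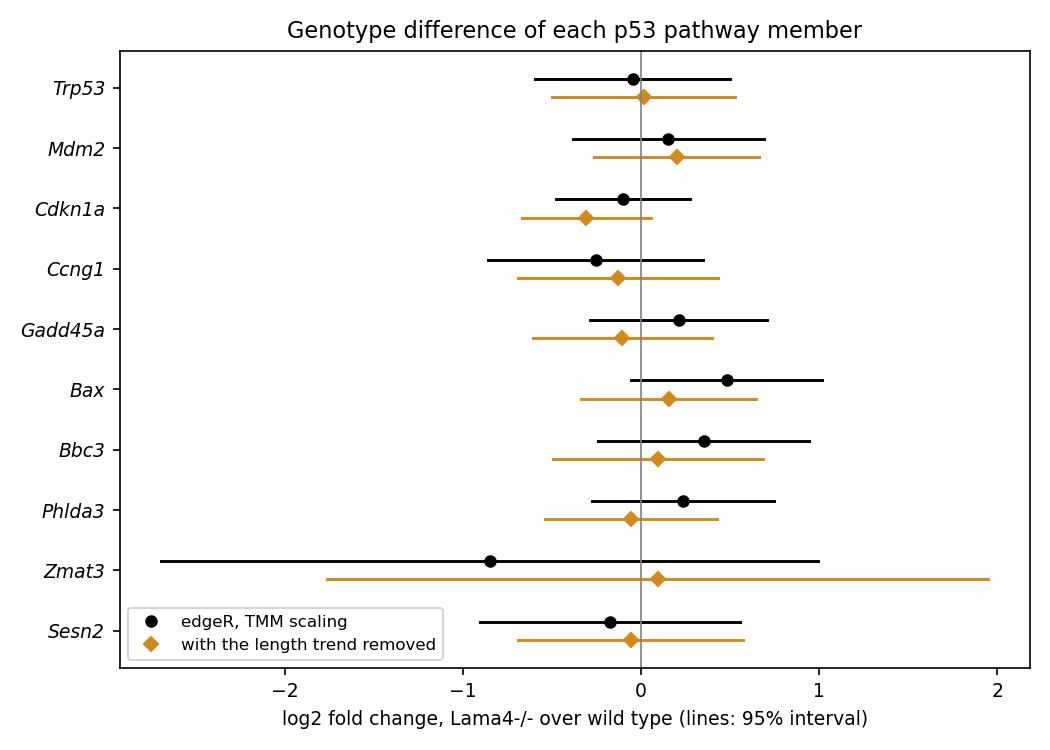
Log2 fold change of each member, Lama4-/- over wild type, with its 95% interval, from the edgeR fit (black) and from the fit with the trend on transcript length removed (orange). Every interval includes 0 in both fits; Zmat3 has the widest, from -2.70 to 0.995 in the first.

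Fold changes in these libraries followed transcript length. Over all genes tested, the median log2 fold change was 0.34 in the decile with the shortest transcripts and -0.92 in the decile with the longest. 8 of the 10 members had the sign of the median of their length decile, and the share over all genes was not computed. Trp53, Mdm2, Ccng1 and Sesn2 lay in a decile with a median of only -0.08, where the sign says little. Bax, at 1100 bases the shortest, had 0.48 where its decile had a median of 0.34, and Zmat3, at 7797 bases the longest, had -0.85 where its decile had -0.92. Cdkn1a (2080 bases) was one of the 2 exceptions, at -0.10 against a median of 0.27, and 26.1% of the genes of its decile lay lower. Mdm2 (3145 bases) was the other, at 0.15 against -0.08.

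With the length trend removed from every library, the difference of Bax was 0.16 on the log2 scale (interval -0.33 to 0.65) and that of Bbc3 was 0.10 (interval -0.49 to 0.68). Gadd45a and Phlda3 then took negative values, of -0.11 and -0.056, and Zmat3 and Trp53 took positive ones, of 0.094 and 0.015. The estimate of Cdkn1a went the other way, to -0.31 (interval -0.67 to 0.06; unadjusted p = 0.0872 in edgeR). 0 of the 10 had an unadjusted p under 0.05 in that fit either, beside 8.12% of all genes tested.

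**Figure D3:**
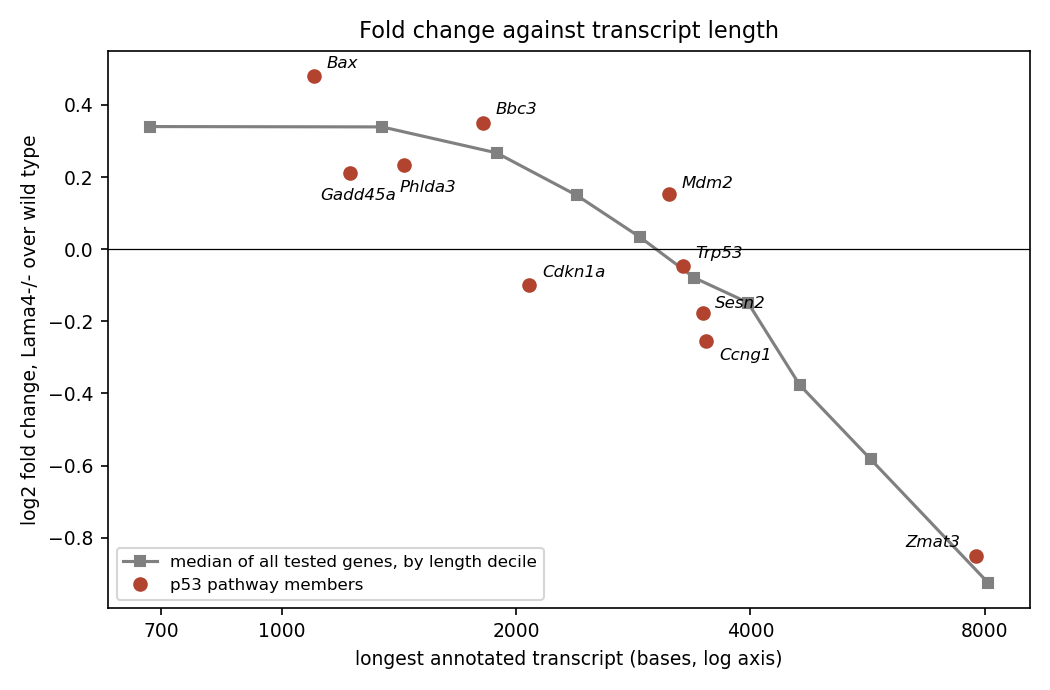
Log2 fold change, Lama4-/- over wild type, against the longest annotated transcript of each gene on a log axis; grey squares are medians of the 10 length deciles of all genes tested and red points are the members. Most members lie near the grey line, with Bax at 0.48 and Zmat3 at -0.85 at its ends and Cdkn1a below it at -0.10.

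Levels of different genes were compared per length, as CPM per kb of the longest annotated transcript, over all 6 libraries. Cdkn1a led at 287 ± 19.5 CPM per kb (SD, n = 6) and was above every other member in every library. Phlda3 came next at 66.8 ± 11.3 CPM per kb and was above Gadd45a in 6 of 6 libraries. In wild type replicate 2, Sesn2 was slightly above Phlda3, at 61.9 against 61.5 CPM per kb. Gadd45a (48.8 ± 6.87), Bax (46.6 ± 9.91), Mdm2 (45.8 ± 8.25) and Sesn2 (43.0 ± 12.5 CPM per kb) could not be ordered, since each was above the next in 3 of 6 libraries. Ccng1 followed at 25.7 ± 5.88 CPM per kb, below Sesn2 in 6 of 6 libraries, then Bbc3 at 18.5 ± 3.51. Trp53 itself was ninth of the 10, at 11.9 ± 1.21 CPM per kb. Zmat3 was the lowest at 0.839 ± 0.677 CPM per kb, and its range did not reach that of Trp53. The order rests on 1 transcript length per gene: by the length of all annotated exons together, Sesn2 moved to rank 3 and the others kept their order among themselves.

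**Figure D4:**
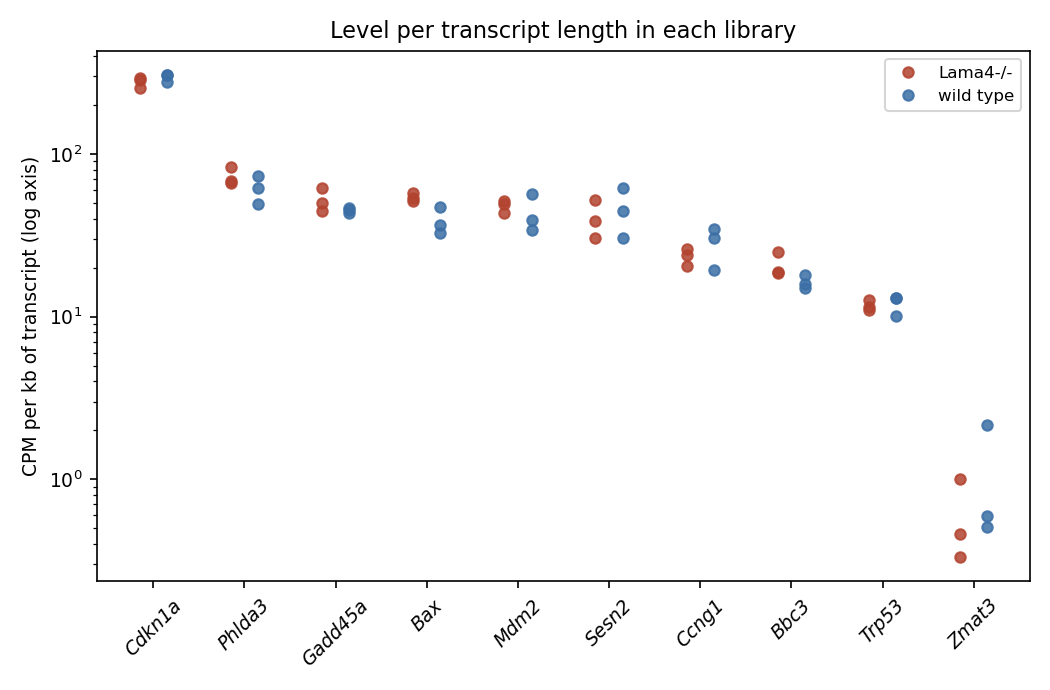
CPM per kb of transcript on a log axis for each member in each library, Lama4-/- (red) left of wild type (blue), ordered by the mean of the 6 libraries. Cdkn1a stands alone at 255 to 307 CPM per kb, and Zmat3 lies apart at the low end.

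The wider p53 programme was taken from lists chosen by name, with earlier results of these data known. Of 50 other p53 targets, 47 were tested, 24 of them on the positive and 23 on the negative side, and their median log2 fold change was 0.015. None passed the adjusted threshold in edgeR, and 4 had an unadjusted p under 0.05 (8.51%, against 12.8% of all genes tested), 1 higher and 3 lower. Sertad1, a regulator of E2F and CDK4 activity, was at 306, 275 and 383 CPM in Lama4-/-, against 233, 171 and 176 CPM in wild type (log2 fold change 0.73, SE 0.21, edgeR adjusted p = 0.258; DESeq2 adjusted p = 0.0482). It was the only gene of this list that DESeq2 called, and its log2 fold change was 0.42 with the length trend removed (unadjusted p = 0.0554 in edgeR). Xpc, which recognises DNA damage for excision repair, averaged 14.9 ± 5.33 CPM in Lama4-/- and 4.79 ± 4.05 CPM in wild type (SD, n = 3 each). Its log2 fold change of 1.66 (unadjusted p = 0.0563 in edgeR) became 1.99 with the length trend removed (unadjusted p = 0.0231 in edgeR). Mgmt, which reverses alkylation of guanine, averaged 21.9 ± 5.51 CPM in Lama4-/- and 14.3 ± 3.69 CPM in wild type. On the lower side, Trp53inp1, a p53-induced cofactor of p53 itself, was at 12.1, 14.4 and 5.01 CPM in Lama4-/-, against 21.9, 38.9 and 28.4 CPM in wild type (log2 fold change -1.50, SE 0.47, edgeR adjusted p = 0.276). With the length trend removed it was -0.97 (unadjusted p = 0.0574 in edgeR). Tob1, an antiproliferative regulator of mRNA decay, was at 141, 172 and 175 CPM in Lama4-/-, against 231, 269 and 209 CPM in wild type. In both Trp53inp1 and Tob1 the groups did not overlap. Of the 47 tested, 2 had groups without overlap with Lama4-/- higher and 5 with it lower, beside 10.3% and 12% of all genes tested. Tob1, with a transcript of 2288 bases, had a log2 fold change of -0.54 that became -0.70 with the length trend removed (unadjusted p = 0.00364 in edgeR). The phosphatase gene Ptpn14 averaged 20.7 ± 8.80 CPM in Lama4-/- and 38.8 ± 7.85 CPM in wild type, and its log2 fold change of -0.91 became 0.25 with that trend removed (transcript of 10746 bases).

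No paralog of a member passed the adjusted threshold in edgeR. Of the 16 paralogs listed, 13 were tested, with a median of -0.14 and 4 at an unadjusted p under 0.05 (30.8%, against 12.8% of all genes tested; 3 higher, 1 lower). Once the length trend was removed, 0 of the 13 had one. Gadd45g was at 1601, 1308 and 2298 CPM in Lama4-/-, against 1073, 999.7 and 1161 CPM in wild type, and Gadd45b at 1309, 1044 and 1585 CPM in Lama4-/-, against 1033, 873 and 902 CPM in wild type. Neither gene had overlapping groups. Their log2 fold changes were 0.69 (SE 0.24) for Gadd45g and 0.49 (SE 0.21) for Gadd45b, with edgeR adjusted p of 0.318 and 0.388. With the length trend removed they were 0.35 and 0.18. Of the 13, 3 had groups without overlap with Lama4-/- higher and 1 with it lower, beside 10.3% and 12% of all genes tested. Bok, a relative of Bax, was at 60.2, 38.9 and 33.0 CPM in Lama4-/-, against 27.4, 21.1 and 8.80 CPM in wild type (edgeR adjusted p = 0.343). On the lower side, the sestrin gene Sesn3 averaged 14.7 ± 9.22 CPM in Lama4-/- and 32.9 ± 7.91 CPM in wild type, and Sesn1 23.7 ± 4.40 and 29.8 ± 10.3 CPM. Mdm4, which holds p53 inactive beside MDM2, averaged 13.8 ± 10.4 CPM in Lama4-/- and 28.2 ± 5.68 CPM in wild type, where Lama4-/- replicate 3 was at 1.74 CPM.

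Of the kinases, ligases and cofactors that control p53, 32 of the 34 listed were tested. Among these, 20 had a negative and 12 a positive log2 fold change, with a median of -0.44, and 4 had an unadjusted p under 0.05, all lower. That share, 12.5%, was near the 12.8% of all genes. Their transcripts were long, with a median of 4408 bases against 3126 over all genes tested, and with the length trend removed the median of the list was -0.017. In that fit 1 of the 32 had an unadjusted p under 0.05, beside 8.12% of all genes tested. Crebbp, an acetyltransferase and coactivator, was at 25.03, 29.0 and 43.1 CPM in Lama4-/-, against 134, 40.4 and 136 CPM in wild type. The ubiquitin ligase gene Huwe1 was at 47.4, 50.8 and 35.2 CPM in Lama4-/-, against 114, 51.9 and 190 CPM in wild type. Both passed in DESeq2, with adjusted p of 0.0199 for Crebbp and 0.0454 for Huwe1, and not in edgeR, with adjusted p of 0.252 and 0.279. Their log2 fold changes were -1.68 and -1.42, and -0.44 and 0.00 with the length trend removed. The methyltransferase gene Setd7 averaged 7.28 ± 2.72 CPM in Lama4-/- and 23.2 ± 11.1 CPM in wild type. On the higher side, Prkdc, the catalytic chain of DNA-dependent protein kinase, averaged 9.92 ± 7.29 CPM in Lama4-/- and 4.53 ± 2.14 CPM in wild type. The groups overlapped, with Lama4-/- replicate 2 at 1.81 CPM. The log2 fold change of Prkdc was 1.14, and 2.26 with the length trend removed (transcript of 12647 bases, unadjusted p = 0.0488 in edgeR). Kmt5a averaged 81.3 ± 35.9 and 59.5 ± 16.7 CPM and Kat5 21.3 ± 4.36 and 17.6 ± 3.78 CPM in Lama4-/- and wild type.

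**Figure D5:**
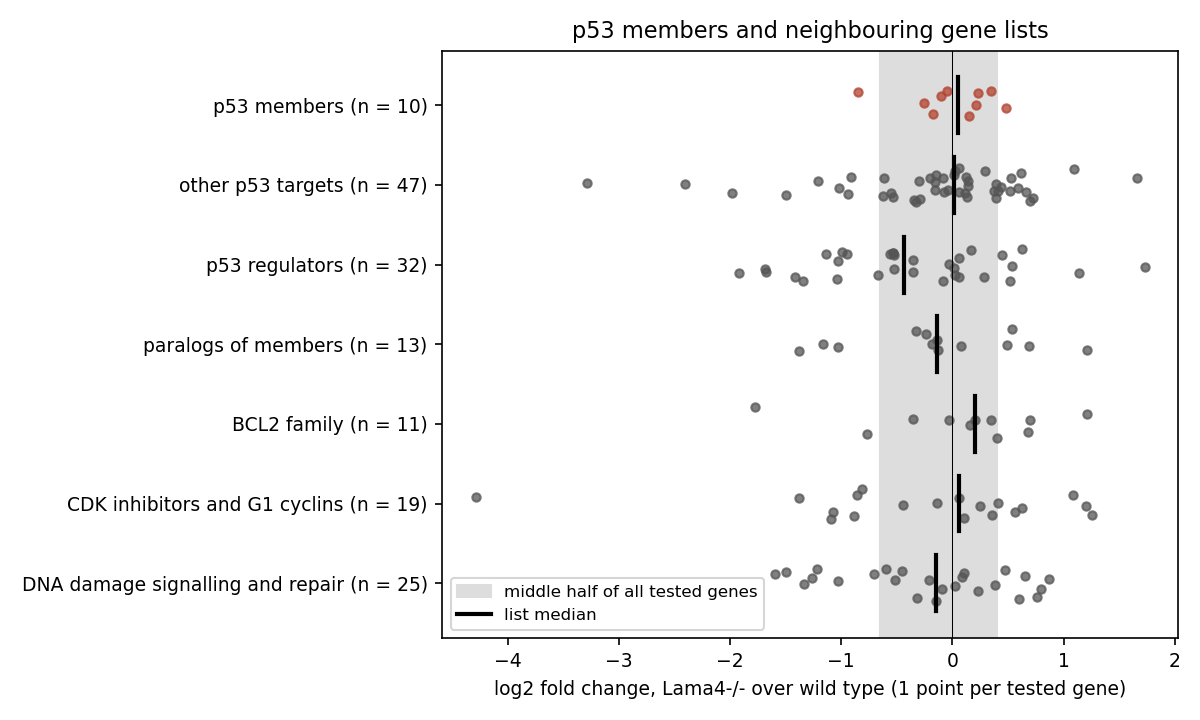
Log2 fold change, Lama4-/- over wild type, of every tested gene of the p53 members (red) and of 6 neighbouring gene lists (grey), with list medians as black bars and the range from the lower to the upper quartile of all genes tested as a grey band. The members lie between -0.85 and 0.48, and the median of the regulators is at -0.44.

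Among the other genes of mitochondrial cell death, 11 of the BCL2 family were tested, 7 of them on the positive and 4 on the negative side, and their median log2 fold change was 0.20 (0.41 with the length trend removed). At an unadjusted p under 0.05 there were 2 of the 11 (18.2%, against 12.8% of all genes tested), and 1 with the length trend removed. They were Bok and Bcl2l2. The second encodes the survival protein BCL-W and was at 6.54, 6.02 and 3.41 CPM in Lama4-/-, against 22.1, 5.14 and 27.2 CPM in wild type (edgeR adjusted p = 0.332). Wild type replicate 2 lay among the Lama4-/- values. Bcl2 averaged 12.3 ± 5.16 CPM in Lama4-/- and 20.8 ± 7.42 CPM in wild type, and Bcl2l13 33.3 ± 9.32 and 42.6 ± 10.9 CPM. The BH3-only genes Bid and Bad averaged 16.5 ± 3.28 and 38.3 ± 9.67 CPM in Lama4-/-, and 10.4 ± 5.04 and 30.1 ± 6.24 CPM in wild type.

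Of the cyclin-dependent kinase inhibitors and G1 genes, the setting in which p21 acts, 19 were tested, with a median of 0.061 and 4 at an unadjusted p under 0.05 (21.1%, against 12.8% of all genes tested), 1 higher and 3 lower. Once the length trend was removed, 2 had one. Cdk4 was at 212, 191 and 223 CPM in Lama4-/-, against 167, 146 and 111 CPM in wild type (log2 fold change 0.56, SE 0.20, edgeR adjusted p = 0.328). Its partner Ccnd3 averaged 113 ± 16.5 CPM in Lama4-/- and 88.6 ± 10.9 CPM in wild type, and Ccne1 13.6 ± 7.86 and 5.68 ± 1.75 CPM. Cdk6 was at 47.1, 47.2 and 35.9 CPM in Lama4-/-, against 123.3, 50.2 and 104 CPM in wild type, and its log2 fold change of -1.10 became 0.12 with the length trend removed (transcript of 11525 bases). Ccnd2 averaged 62.6 ± 7.87 CPM in Lama4-/- and 132 ± 64.1 CPM in wild type, and Ccnd1 22.5 ± 9.43 and 41.4 ± 20.9 CPM. E2f2, named after its values were seen since DESeq2 called it (adjusted p = 0.0197), had 2, 11 and 0 counts in Lama4-/-, against 52, 22 and 145 counts in wild type.

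Of the genes of DNA damage signalling and repair, 25 were tested, with a median of -0.15 and 3 at an unadjusted p under 0.05 (12%, against 12.8% of all genes tested). Rpa2, a subunit of the protein that coats single-stranded DNA, was at 34.2, 25.9 and 37.7 CPM in Lama4-/-, against 22.4, 20.9 and 19.1 CPM in wild type (edgeR adjusted p = 0.388). Its groups did not overlap, as in 22.3% of all genes tested. Nbn, of the complex that senses double-strand breaks, averaged 18.4 ± 6.18 CPM in Lama4-/- and 10.03 ± 2.19 CPM in wild type. Rad50, of the same complex, averaged 5.94 ± 1.98 CPM in Lama4-/- and 13.8 ± 5.16 CPM in wild type. The log2 fold changes were 0.87 for Nbn and -1.22 for Rad50, and 0.76 and -0.71 with the length trend removed. Topbp1, an activator of the kinase ATR, averaged 10.9 ± 4.89 CPM in Lama4-/- and 26.1 ± 13.4 CPM in wild type, and the ubiquitin ligase gene Rnf168 8.79 ± 10.1 and 18 ± 6.25 CPM. No gene of this list passed in edgeR or in DESeq2.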

How the data were processed

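Per the submitters' processing notes, the builds were GRCm38 and mm10, and the tools included DESeq2, featureCounts, Subread and STAR 2.6.1d, without parameters. Per the labels' protocols, cDNA was made with the SMART-Seq v4 kit and sequenced as 75 bp single-end reads without strand, so overlapping exons, at most 19.1% of a member's (Gadd45a), cannot be told apart. The block of whole numbers, headed normalized by the authors, holds the raw gene counts deposited for each library and was used here; the other block, a deposited signal equal to those counts times 1 constant per library, was not tested. The authors' remaining columns are, per the file headers, a DESeq2 Wald test: a mean signal, p-values raw and adjusted, a Wald score, and a shrunken log2 fold change with its error.

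Genes were kept with filterByExpr (14465), scaled with TMM and tested in R 4.3.3 by edgeR 4.0.16 (quasi-likelihood F test, robust), 3 libraries against 3, Benjamini-Hochberg adjusted over all genes tested, at 0.05. Intervals are 95% intervals from the same fit. Lengths and positions are from GENCODE M21 (GRCm38), where 99.8% of the gene IDs were found. The length trend was a lowess curve (span 0.3) per library, used as an offset. Alternatives were other scalings and filters, DESeq2 1.42.0, limma voom (limma 3.58.1), no robust moderation, a replicate block, the 10 most abundant genes left out, and each library left out. The edgeR, DESeq2, voom, block and length-trend fits were tested on simulated counts. Libraries of 1 genotype differed beyond counting noise (lowest chi-square per gene 42.6). Besides the members, each list's tested genes past the threshold and the 3 smallest p in each direction at a mean of 5 CPM or more are named, except 1 gene that is not reported here. The members and lists were chosen with earlier results of these data known.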

Additional observations from a re-analysis of the deposited data

How the results depend on the processing

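0 of the 10 members passed under any of the 16 alternatives, with adjusted p of 0.314 or more in each; Zmat3 was not tested with a filter of 5 CPM in 3 libraries. Over 159 estimates, 10 took the other sign. With the length trend removed these were Trp53 at 0.015, Gadd45a at -0.11, Phlda3 at -0.056 and Zmat3 at 0.094, and with upper-quartile scaling Trp53 at 0.047. With each library left out, Trp53 ranged from -0.15 to 0.025, Sesn2 from -0.41 to 0.11 and Zmat3 from -1.45 to 0.15. The median of the members, 0.053 in the edgeR fit, was 0.15 with upper-quartile scaling, 0.16 with the 5 CPM filter, -0.021 with the length trend removed and -0.024 to 0.16 with each library left out (negative without Lama4-/- replicate 2, highest without wild type replicate 2). Each moved by less than the spread of such a median between libraries of 1 genotype (SD 0.122). The sign of the median was not fixed, since it was negative with the length trend removed and without Lama4-/- replicate 2.

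Past the threshold, the edgeR fit had 1 gene, Lama4. The number was 741 with DESeq2 and 12 without a filter. It was 0 with upper-quartile scaling, limma voom, no robust moderation or the length trend removed, and 0 to 1 with each library left out. Where it was 0, the knocked-out gene itself did not pass, so 0 members there says little. The replicate numbers were not taken as pairs because the labels do not state that they pair animals. Samples with the same number had weak positive correlations of their deviations (0.0400, 0.132 and 0.0539), and every library correlated best with its own number. What the numbers may share was not tested. With the replicate block 0 genes passed, and the median of the members was 0.07. Precision is limited by 3 libraries a group and, for Zmat3, by as few as 27 counts.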

Other observations

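Several members varied less between libraries of 1 genotype than most genes of like abundance. The within-genotype SD of log2(CPM + 0.5) was 0.0926 for Cdkn1a, and 2.28% of the genes in its decile of mean CPM had a smaller one. For Trp53 that share was 5.60%, for Gadd45a 8.51%, for Bbc3 9.12% and for Bax 14.5%. Mdm2 (46.2%) and Ccng1 (48.0%) were in the middle, Phlda3 was at 33.8%, and Zmat3 (63.9%) and Sesn2 (81.1%) were above. These are descriptions over 6 libraries, with no test.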
